A study of Mus musculus with 8 samples.

Results

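FOS binding in microglia was examined at 7 genes that encode receptor chains of the interleukin-1 family. They are Il1r2, Il1r1, Il1rl2, Il1rl1, Il18r1 and Il18rap, which stand side by side on mouse chromosome 1, and Il1rap on chromosome 16. A region of the deposited table was taken when its centre lay inside the mm10 body of one of these genes or within 100 kb of it. This gave 31 of the 32773 regions in the table, 29 of them round the chromosome 1 cluster and 2 round Il1rap. Each of the 31 carried a FOS peak and none carried a peak of the second list that the authors had merged into the table.

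Cortical microglia were collected by cell sorting from 4 mice aged 30 postnatal days, killed 4 h after a unilateral injection of IL-33 into the cerebral ventricles. The series has 4 libraries of chromatin immunoprecipitated with an antibody to FOS and 4 input libraries, a pair per mouse. All mice had received IL-33, no genotype or strain is given in the labels, and no vehicle-injected mouse was analysed here. The table joined 2 peak lists, the authors' merged FOS peaks and a list named in the header for IL-33 against vehicle and here termed the IL-33 list. The sources used here do not say which assay that second list came from. Any region with peaks of both lists is called shared, and a region with a FOS peak alone FOS-only.

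FOS pairs with JUN proteins to form AP-1, a transcription factor that cells make soon after stimulation and that binds sites of the form TGANTCA. IL-33 is released by damaged or stressed cells and, in the brain, by astrocytes and oligodendrocytes. It binds ST2, the product of Il1rl1, and the pair then recruits the accessory chain encoded by Il1rap, which brings in MYD88 and leads to NF-kappaB and MAP kinase signalling. The same accessory chain serves the IL-1 receptor (Il1r1) and the IL-36 receptor (Il1rl2). Il1r2 encodes a decoy receptor that binds IL-1 without signalling. Il18r1 and Il18rap encode the ligand-binding and the accessory chain of the IL-18 receptor.

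The table has no value per library, so depth is unknown, no value below has a replicate error and no test between mice was possible. Every FOS peak name closes with a digit between 1 and 4, termed its calls. This digit was taken to count the FOS libraries with the peak, which is an inference from its range. Each region also has a score, whose scale the sources used here do not state, so scores serve to rank regions within the table. As a check of the cell type, all 10 microglia markers had a FOS region of 4 calls within 100 kb, against 49.1% of all coding genes. By the same measure there were 6 of 12 genes marking mast cells and type 2 innate lymphoid cells, which carry ST2, 2 of 6 astrocyte, 2 of 6 neuron, 1 of 5 monocyte and neutrophil and 3 of 4 endothelial markers. Peaks near a gene do not measure its expression.

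The one listed transcript start of the 7 genes that a FOS region covered was that of Il18rap, and it is shown here together with both listed starts of Il1rl1, which no FOS region covered. The 5′ end of the Il1rl1 gene body, which a FOS region did cover, has no listed start and is not shown. The sequences are those of RefSeq (GRCm38.p6, the build called mm10), plus strand, written 5′ to 3′ and ending at the base before the start. The Il18rap stretch is the part of the FOS region upstream of the start, chr1:40515152-40515361. The Il1rl1 stretches are the 250 bases before each start, chr1:40429320-40429569 and chr1:40439379-40439628. Capitals mark the letters GGAAGT, the core bound by ETS family factors, and in Il18rap its longer form GAGGAAGT, which the ETS factor PU.1 of microglia prefers.
Il18rap: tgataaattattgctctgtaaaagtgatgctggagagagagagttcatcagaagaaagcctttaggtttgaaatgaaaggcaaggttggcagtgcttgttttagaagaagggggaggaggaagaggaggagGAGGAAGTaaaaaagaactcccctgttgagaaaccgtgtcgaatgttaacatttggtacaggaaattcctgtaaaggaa
Il1rl1, first start: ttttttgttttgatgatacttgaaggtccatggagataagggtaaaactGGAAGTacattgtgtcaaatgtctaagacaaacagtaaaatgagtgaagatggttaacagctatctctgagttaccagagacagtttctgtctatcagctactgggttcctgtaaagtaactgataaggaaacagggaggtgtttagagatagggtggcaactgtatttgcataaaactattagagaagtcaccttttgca
Il1rl1, second start: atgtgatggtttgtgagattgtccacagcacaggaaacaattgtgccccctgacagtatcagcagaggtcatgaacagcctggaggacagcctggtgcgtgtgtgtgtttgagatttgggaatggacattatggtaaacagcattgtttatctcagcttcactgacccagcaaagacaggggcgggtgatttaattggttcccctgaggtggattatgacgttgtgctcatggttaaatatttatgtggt

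RefSeq lists 11 starts for the 7 genes, all on the plus strand, each with 300 bases of sequence from 250 bases before the start to 50 after it. None of the 11 sequences held the AP-1 letters TGANTCA, which 7.81% of 32851 promoter sequences of the table held on either strand. None held TGACGTCA, the letters bound by CREB and ATF proteins, which 1.79% held. Where a FOS region covered the start of a coding gene, 4.82% of 4646 promoter sequences held TGANTCA and 4.2% held TGACGTCA. These 4646 come from the 21263 listed starts of coding genes, whereas the 32851 also hold starts outside that set. The shares over covered and over all promoter sequences thus differ in gene set as well. The letters GAGGAAGT stood in Il18rap alone of the 7 genes, with their first base 79 bp before the start, and in 3.2% of all promoter sequences. The shorter GGAAGT stood in 6 of the 11 sequences, in Il1r2, Il1r1, Il1rl1, Il18r1 and Il18rap, and in 23.8% of all. The 11 sequences are not all separate, since those of the Il18r1 starts at 40465552 and 40465621 overlap. On the minus strand of Il18rap the letters TGAGTAA, which differ from an AP-1 site by a single letter, stood just after the start, at 40515368 to 40515374, and 2.68% of all promoter sequences held them. Where a FOS region covered the start, GGAAGT stood in 39.9% of promoter sequences, GAGGAAGT in 5.08% and TGAGTAA in 1.33%. The ETS letters and TGAGTAA were chosen after the sequences had been read.

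**Figure D1:**
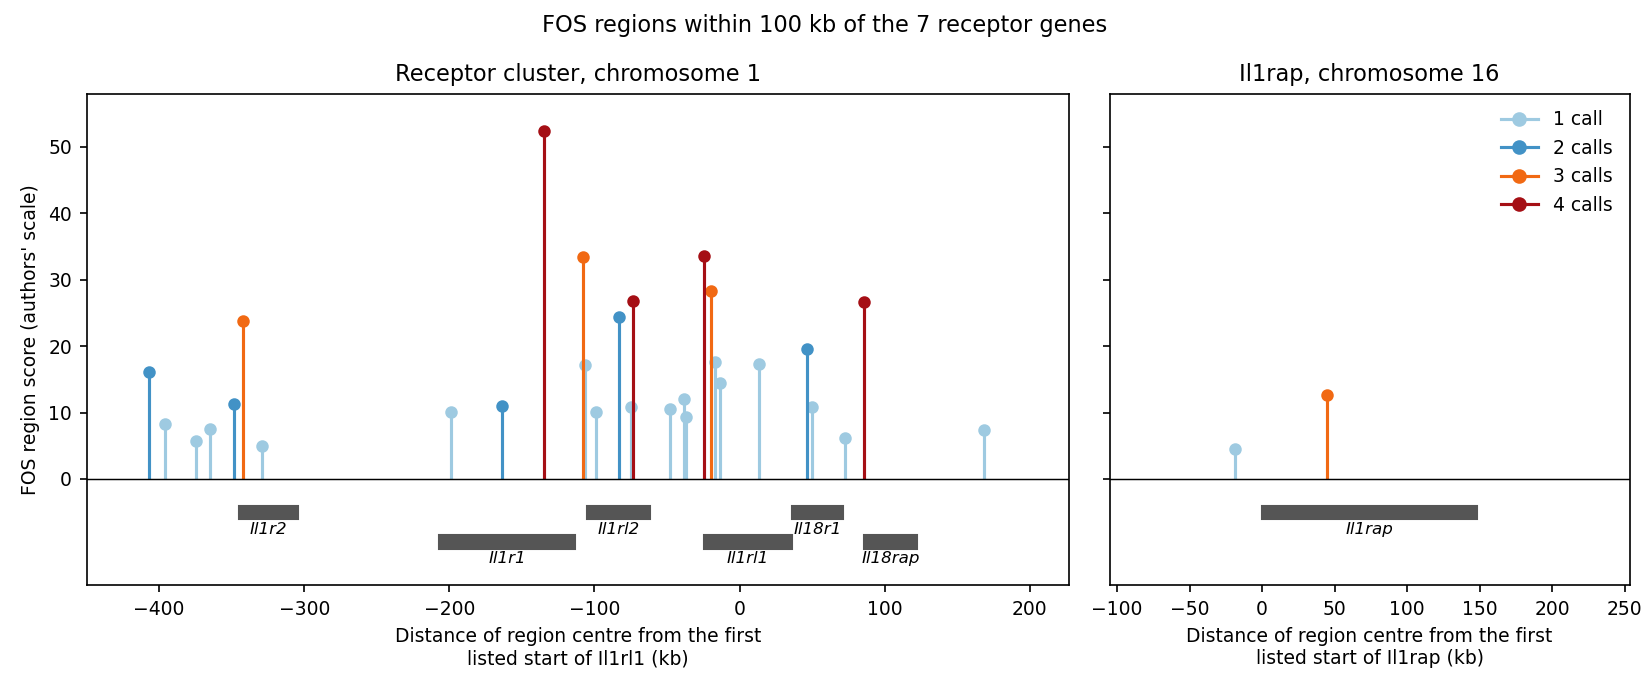
Score of each FOS region within 100 kb of the 7 genes, by the distance of its centre in kb from the first listed start of Il1rl1 (left) or of Il1rap (right), with colour for the number of calls and gene bodies as grey bars below. The cluster held 29 regions, the highest at 52.35 inside Il1r1, and Il1rap held 2, at 4.55 and 12.67.

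Il1rl1, which encodes ST2, (chromosome 1, 40404864 to 40465418), was the nearest coding gene to 7 FOS regions, and 18 lay within 100 kb of it. The median coding gene had 5 within 100 kb, so that Il1rl1 stood at percentile 97.4 of 21887 coding genes by this count. Corrected for length, it had 6.91 FOS regions per 100 kb of window, against a median of 1.9 over all coding genes. None of the 18 lay in its window alone, because the windows of the cluster overlap.

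The highest-scoring of the 7 regions nearest to Il1rl1 was the region of 4 calls at 40404591 to 40404948, with a score of 33.6. It lay over the lower end of the annotated gene body, which is the 5′ end, since the gene is on the plus strand. That end is 24706 bp before the first listed start, and no start is listed there. Among FOS regions of 4 calls its score was at percentile 44.2. The next region, at 40409925 to 40410310, had 3 calls and a score of 28.27, at percentile 64.8 of its kind. Regions at 40412478 (17.6) and 40415596 (14.5) followed within a few kilobases, both from 1 call. These 4 regions formed a run upstream of both listed starts, and the nearest of them was still 13839 bp before the first start. Only the region at 40442716 to 40442986 (1 call, score 17.3) lay close to a start, 3222 bp after the second. A further pair of regions of 1 call, at 40391421 (12) and 40392647 (9.29), lay 13308 and 12082 bp before the gene body. Of the 7 regions, 5 rested on 1 call.

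Il1r1, which encodes the signalling receptor of IL-1 (chromosome 1, 40222480 to 40316201), held the highest score of the cluster. The region at 40294855 to 40295175, inside the gene and 28429 bp after its second listed start, had 4 calls and a score of 52.35. This is percentile 95.6 of all FOS regions and percentile 81.8 of those with 4 calls. The other regions nearest to Il1r1 were low. A region of 2 calls at 40265484 to 40265804, 942 bp before the second listed start, scored 10.97, and a region of 1 call at 40230377 to 40230647 scored 10.1. Within 100 kb of Il1r1 lay 16 FOS regions, but 3 were nearest to it, and the rest belonged to Il1rl2 and Il1rl1.

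Il1rl2, the IL-36 receptor gene (chromosome 1, 40324589 to 40367555), was nearest to 7 regions like Il1rl1, and 17 lay within 100 kb. Its highest score was 33.33, in a region of 3 calls at 40321812 to 40322190, 2588 bp before the start, with a region of 1 call (17.1) between it and the gene, 1779 bp before the start. Inside the gene a region of 4 calls at 40355944 to 40356272 scored 26.77, and one of 2 calls at 40346488 scored 24.35. The remaining 3 regions had 1 call and scores from 10.1 to 10.9. The densest stretch of the cluster was the 8.39 kb between Il1r1 and Il1rl2, with 2 regions, followed by the 14.5 kb between Il18r1 and Il18rap, also with 2.

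The IL-18 receptor genes differed from each other in where the regions stood. Il18rap, which encodes the accessory chain (chromosome 1, 40515362 to 40551707), was nearest to 1 region, and that region covered its start. It lay at 40515152 to 40515520, had 4 calls and scored 26.65, with its centre 26 bp before the start. Among FOS regions of 4 calls this score was at percentile 23.5. No FOS region was centred inside the body of Il18rap. Il18r1, which encodes the ligand-binding chain (40465552 to 40500854), had 3 nearest regions and none of 4 calls. The highest, at 40475688 to 40476046, had 2 calls, scored 19.55 and lay 9861 bp after the last of its 3 listed starts. Regions of 1 call followed at 40479479 (10.9) and 40502144 (6.19).

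Il1r2, the decoy receptor gene (chromosome 1, 40084692 to 40125230), had 7 FOS regions within 100 kb, of which 4 were nearest to it. The highest was a region of 3 calls at 40087426 to 40087767, 1503 bp after the listed start, with a score of 23.83. The others scored 11.25 (2 calls, 3507 bp before the gene), 7.59 and 4.96 (1 call each). The 3 further regions of this window, with scores from 5.78 to 16.15, were nearest to Map4k4, which encodes a kinase and lies on the other side. None of the 7 had 4 calls.

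Il1rap, the accessory chain gene shared by the receptors for IL-1, IL-33 and IL-36 (chromosome 16, 26581509 to 26730128), had the fewest regions of the 7 genes although its body was the longest. A region of 3 calls inside the gene at 26626110 to 26626467 scored 12.67, at percentile 7.47 of FOS regions with 3 calls. A region of 1 call at 26562746 to 26563020, 18626 bp before the gene, scored 4.55, at percentile 3.48 of its kind. Its density was 0.574 FOS regions per 100 kb, percentile 29.6 of all coding genes. Neither region lay at its listed start, the nearer one being 18822 bp away.

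**Figure D2:**
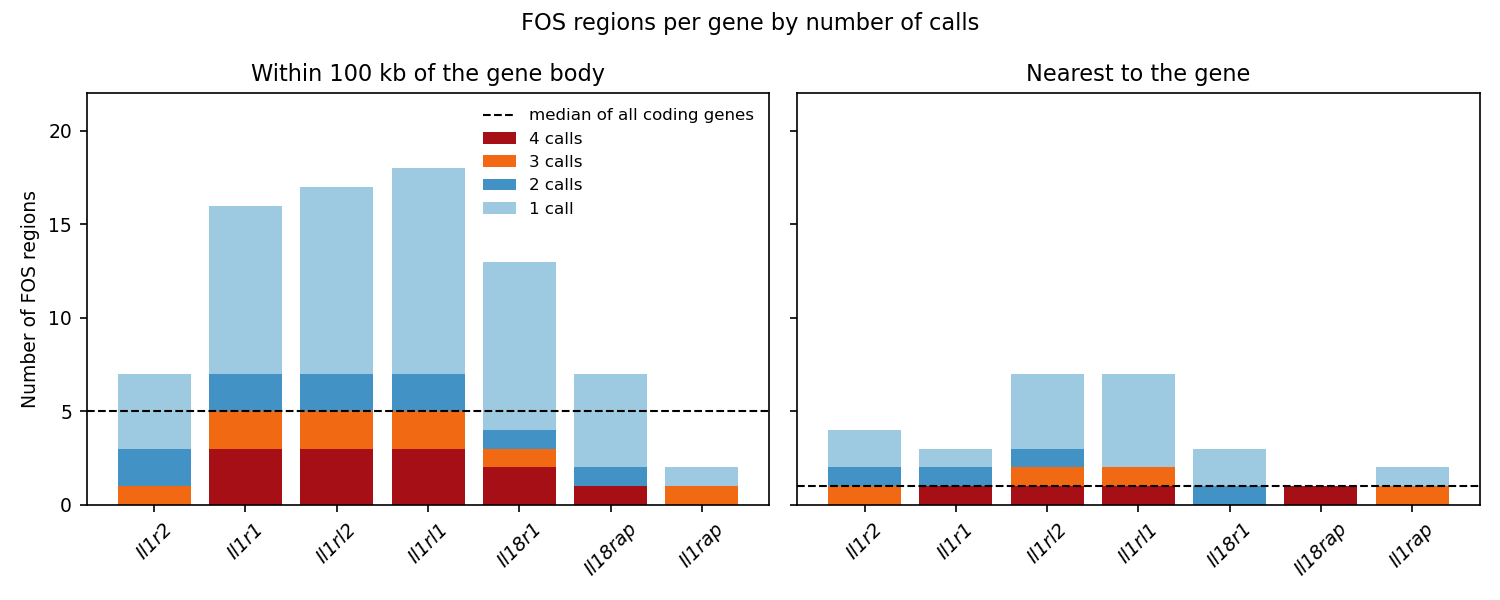
Number of FOS regions per gene, stacked by number of calls, within 100 kb of the gene body (left) and for regions whose nearest coding gene it is (right), with the median of all coding genes as a dashed line. Il1rl1 and Il1rl2 lead on both counts, with 18 and 17 on the left and 7 each on the right, and Il1rap has 2 on both.

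Ordered by FOS regions within 100 kb, the genes ran Il1rl1 (18), Il1rl2 (17), Il1r1 (16), Il18r1 (13), Il1r2 and Il18rap (7 each) and Il1rap (2). The windows of the genes from Il1r1 to Il18rap overlap. Of the 31 regions, 22 lay in more than 1 window, and the counts over the 7 windows sum to 80, so these 5 genes are not separate loci. All 7 regions of Il1r2 and both of Il1rap lay in their own window alone. The order of the first 3 depended on the rule. Within 50 kb Il1rl2 had 14 regions, Il1rl1 13 and Il1r1 9, within 10 kb they had 6, 5 and 5, and with at least 2 calls each had 7. All 7 genes had a FOS region within 100 kb, as did 79.5% of coding genes, and 5 had one of 4 calls, against 49.1%. All 7 were the nearest gene to a FOS region, against 50.6% of coding genes, and 4 of them to a region of 4 calls, against 17.5%. These 4 were Il1r1, Il1rl2, Il1rl1 and Il18rap. A FOS region was centred inside the body of 6 genes, against 38.2% of coding genes, and within 1 kb of an end of 2 genes, Il1rl1 and Il18rap, against 33.1%. The shares for nearest genes and for bodies were not matched for gene length or for the distance to neighbouring genes. The bodies of the 7 genes are 35.3 to 149 kb long. A listed start was covered in 1 of the 7, Il18rap, against 24.5% of the 17492 coding genes with a listed start. The covered 5′ end of the Il1rl1 body is not a listed start and does not enter this count. Since 6 of the genes are neighbours, these counts are not 7 independent cases.

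Taken as regions, those of the 7 genes were set against all FOS regions by calls and score. Of the 31, 18 (58.1%, 95% interval 39.1 to 75.5) had 1 call, against 39.8% of all 31473 FOS regions, and 4 (12.9%, 3.63 to 29.8) had 4 calls, against 22.9%. The intervals are exact Clopper-Pearson intervals that cover counting error only, and both include the share over all FOS regions. Like the interval for widths below, they treat the regions as independent, although 29 of the 31 lie round 1 cluster. The median score was 12 in the 31 regions and 20.2 in all FOS regions, and 8 of the 31 were at or above the median of all. Set against all FOS regions with the same number of calls, 9 of the 31 scores lay above the median. These were 4 of 18 with 1 call, 2 of 5 with 2 calls, 2 of 4 with 3 calls and 1 of 4 with 4 calls. For 1 call the medians were 10.1 in the 18 regions and 12.4 in all FOS regions of that kind, and for 4 calls 30.2 and 35.7. For 3 calls the median of 26 in 4 regions was above the 24.7 of all.

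**Figure D3:**
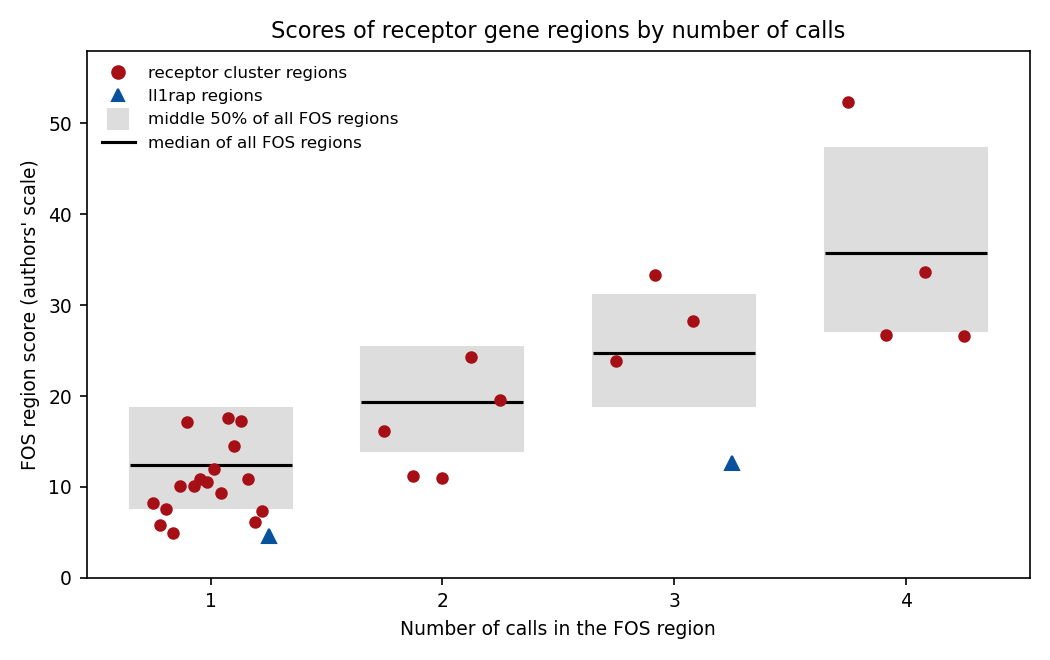
Score of each of the 31 regions by its number of calls, with circles for the chromosome 1 cluster, triangles for Il1rap, and the middle 50% and median of all FOS regions with that number of calls as grey boxes and black lines. Both Il1rap regions lie below their boxes, as do several cluster regions. The Il1r1 region at 52.35 and the region at 33.33 nearest to Il1rl2 lie above theirs.

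FOS-only regions of 1 call come in 4 widths in the table. Of the 18 such regions at the 7 genes, 14 were 270 bp wide (77.8%, 52.4 to 93.6), against 51.7% of the 12305 FOS-only regions of 1 call. One was 320 bp wide, against 27.8% of those regions, 2 were 274 bp and one was 302 bp wide. The sources used here do not say what a width stands for, and its part in the counts was not tested.

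FOS regions were spread unevenly along the cluster. The median distance between neighbouring centres was 12.3 kb in the cluster and 16.3 kb over all FOS regions. Between Il1r2 and Il1r1 no FOS region was found between the one that ends at 40100304 and the one that starts at 40230377, whose centres are 130343 bp apart. From the first region inside Il1r1 to the region at the Il18rap start, neighbouring centres were at most 35.1 kb apart. The body of Il18rap held none, and the next centre was 82.7 kb from that at the start, in a region of 1 call (7.39) inside Slc9a4, a sodium-proton exchanger gene. That region was the last before a long empty stretch, with the next FOS region, nearest to Mrps9, 2310 kb beyond the end of Il18rap (1 call, score 6.61). On the other side, the first region outside the 100 kb limit lay 102 kb before Il1r2, was nearest to Map4k4, and had 3 calls and a score of 24.37. The farthest region inside the limit on that side lay 61.8 kb away (2 calls, 16.15). At Il1rap the nearest regions outside the limit were 232 kb before the gene (2 calls, 27.1) and 565 kb after it (1 call, 5.58).

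Whether FOS regions at these genes coincide with the IL-33 list was read from the merged table. None of the 31 regions carried an IL-33 list peak, against 4.92% of all FOS regions. By the rule of 3 divided by the number of regions, an approximate 95% limit, a count of 0 in 31 allows a share of up to 9.68%. A share as low as that of the whole table thus cannot be told from 0 here. The limit treats the regions as independent, although 29 of them lie round 1 cluster. The share among all FOS regions would amount to 1.52 such regions in 31, and the shares among regions with the same numbers of calls to 1.15.

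Counted by genes, 0 of the 7 had an IL-33 list region within 100 kb, against 19.1% of coding genes, and 0 had a shared region, against 14.7%. The share of genes with an IL-33 list region was larger where the window held more FOS regions. A shared region counts as both, so part of this rise follows by construction. It was 1.65% of genes with 1 or 2 FOS regions, where Il1rap stood, 24.4% of those with 6 to 8 (Il1r2 and Il18rap) and 53.3% of those with 13 to 15 (Il18r1). It was 65.1% of the 651 genes with 16 to 18 FOS regions, among them Il1r1, Il1rl2 and Il1rl1. Among the 71 of these genes that had 3 FOS regions of 4 calls, as these 3 did, it was 50.7%. Of the 164 genes with 18 FOS regions like Il1rl1, 123 (75%) had an IL-33 list region. These 164 were not matched for calls, and 11 of the 18 regions at Il1rl1 had 1 call. Genes that lie together share windows, so these shares do not rest on independent genes.

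**Figure D4:**
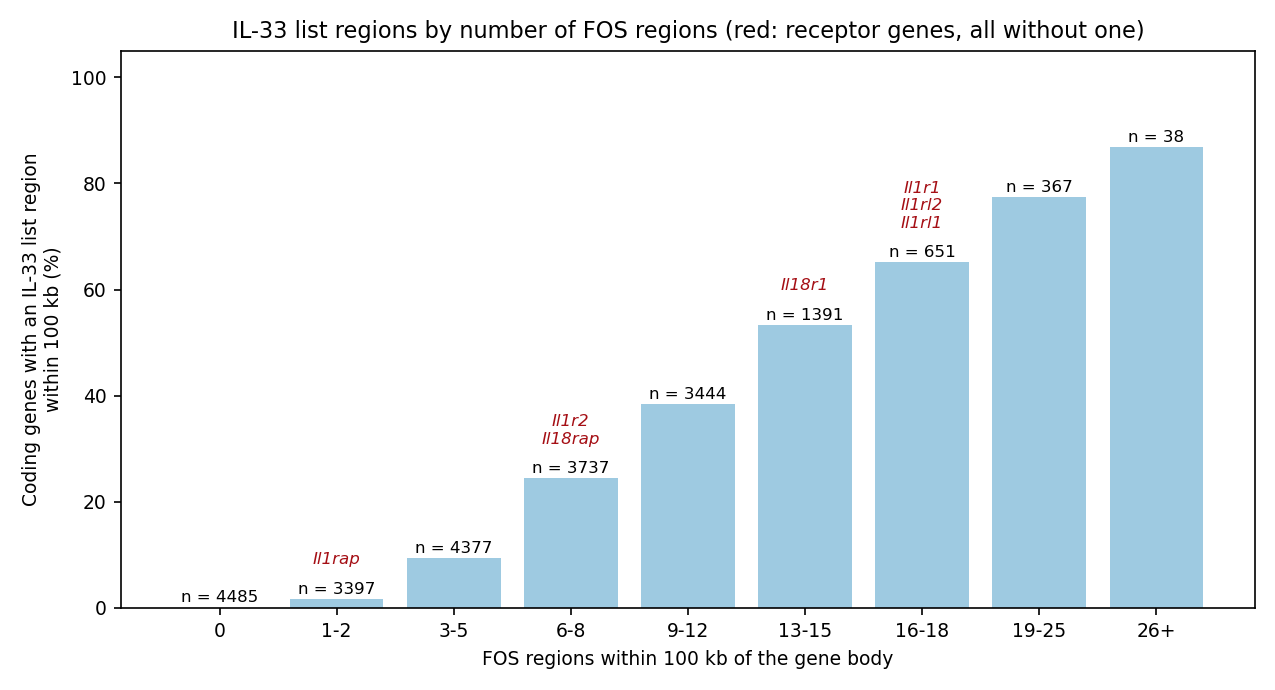
Share of coding genes with an IL-33 list region within 100 kb, in percent, by the number of FOS regions within 100 kb, with the number of genes above each bar and the 7 receptor genes in red over the bar of their own count. The share was 65.1% at 16 to 18 FOS regions, and none of the 7 genes had such a region.

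The nearest region of the IL-33 list lay 591 kb before Il1r2 at 39493609 to 39494109, carried no FOS peak, and was 15081 bp from Tbc1d8. On the other side the nearest was 6320 kb beyond Il18rap, a shared region of 4 calls (30.92) inside Slc39a10, a zinc transporter gene. The stretch between these neighbours was 7380 kb long and held 76 FOS regions. Of 2826 such stretches between neighbouring IL-33 list regions, 69 were at least as long and 36 held at least as many FOS regions. The stretch was picked because it holds the cluster, whose windows span 667 kb without an IL-33 list region, so it had to be long. A gene also falls more often in a long stretch than in a short one. These ranks thus do not measure how unusual the stretch is. Measured from each gene body, the nearest IL-33 list region was 911 kb from Il1rl1, 1020 kb from Il18rap and 644 kb from Il1rap. The median over coding genes was 486 kb, and the 7 genes stood at percentiles 55.0 to 68.9. By distance alone all 7 were thus farther than the median gene, though nearer than the upper quartile of 1330 kb. The distances of the 6 cluster genes all run to the same region near Tbc1d8, so they are not separate values. The IL-33 list region nearest to Il1rap was a shared region of 4 calls at 27374188 to 27375017 (47.47), closest to Uts2b.

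The rest of the pathway was read from a list of 33 genes, for which the same counts were made. Of these, 28 had a FOS region within 100 kb, close to the 79.5% of all coding genes. Of the 33, 24 were nearest to a FOS region, against 50.6% of coding genes, and 10 had an IL-33 list region within 100 kb, against 19.1%. Among 11 ligands and antagonists, 6 were nearest to a FOS region. The highest scores there were 129.15 at Il1a and 61.08 at Il1b, which encode IL-1 alpha and IL-1 beta, and these were the members of that group with an IL-33 list region. Both lie on chromosome 2 and each had 9 IL-33 list regions within 100 kb, so they may not be separate cases among the 10. Il18, the ligand of the IL-18 receptor, stood at 44.0, Il1rn, the IL-1 receptor antagonist gene, at 33.85 and Il33 itself at 23.6. The genes Il18bp, Il1f5, Il1f6, Il1f8 and Il1f9 were nearest to none. Of 3 further receptor family genes, Sigirr, Il1rapl1 and Il1rapl2, none was nearest to a FOS region. Within 100 kb Sigirr had 7 FOS regions, 3 of them of 4 calls, and 1 IL-33 list region, and the other genes of this group had none. Of 19 signalling genes, 18 were nearest to a FOS region, with Irak2, a kinase that MYD88 recruits, at 77.45, Nfkb1 at 74.22 and Mapk14 at 51.1. Tollip, which encodes an inhibitor of the pathway, was the exception. In this group 7 had an IL-33 list region, namely Irak2, Map3k8, Mapk8, Myd88, Nfkb1, Tab1 and Tab2. The highest score of a region nearest to one of the 7 receptor genes, 52.35 at Il1r1, was below those of Il1a, Il1b, Irak2 and Nfkb1.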

How the data were processed

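The deposited table was made by the authors with the mergePeaks program of HOMER, per the file headers, from their merged FOS peaks and the IL-33 list. Bowtie2 and HOMER, with the builds mm10 and GRCm38, are named in the submitters' processing notes. The sources used here do not state how peaks were called or inputs used. The deposited score is a statistic averaged over merged peaks. Outside the 31 regions, where deposited and used scores were equal, it was multiplied by the number of merged peaks and divided by the number of FOS peaks, since IL-33 list peaks enter with 0. The other deposited columns, the number of merged peaks and 2 columns of peak names, were used as the authors gave them. Coordinates are those of the file. Genes were the 21887 protein-coding genes of RefSeq GRCm38.p6 on the main chromosomes, and starts came from its promoter table, which holds 11 starts of the 7 genes. Counts were made in Python 3.11.15 with pandas 2.3.3, and intervals with scipy 1.17.1; the window counts were checked on simulated positions. The text names the 7 genes, coding genes nearest to regions of their windows, and the highest-scoring genes of the pathway list. Genes at the edges of empty stretches (Mrps9, Tbc1d8, Slc39a10, Uts2b) were named after their values were seen. The genes and lists were chosen with earlier results of these data known, and no test was run.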

Additional observations from a re-analysis of the deposited data

How the results depend on the processing

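The count of 31 FOS regions stayed within 1.5 times under windows of 10 kb (22), 20 kb (27) and 50 kb (29), when any overlap with the window counted (31) and when only regions nearest to one of the 7 genes counted (27). It fell to 13 with at least 2 calls, to 4 with 4 calls and to 8 with scores at or above the median of all FOS regions, as fewer regions enter by construction. FOS regions at an end of one of the genes were 2 within 1 kb, 2 within 500 bp and 4 within 2 kb. The counts of IL-33 list and shared regions were 0 under every alternative run (centres within 500 bp or 1000 bp among them), which could give no other value, since the nearest IL-33 list region was 529 kb from any of the 31 regions and no wider window was run. Counts per gene moved by over 1.5 times in 42 of 56 cases. The score as deposited could not differ in these regions, none of which holds an IL-33 list peak. Leaving out a mouse was not possible, and depth per library is unknown. No paired analysis was possible because the table holds no value per library.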
